A study of Homo sapiens with 15 samples.

Results

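The genes described here are the VEGF ligands VEGFA, VEGFB, VEGFC and PGF, the receptors NRP1, NRP2 and FLT1, and the endothelial adhesion molecule PECAM1. Their rows were looked up by symbol among the 18858 genes of the count table. Of the 8, 7 have a row, and no FLT1 counts were analysed here. PECAM1 was selected on its rise in the co-knockdown of these libraries, so its values against the co-knockdown or siControl are a description without a test, which leaves 6 genes tested in those comparisons.

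The cells were MDA-MB-231, an established human breast cancer line, in 5 groups of 3 libraries each. Control cells were not transfected, siControl cells received a non-targeting siRNA pool, siYAP cells a pool against YAP1, siTAZ cells a pool against WWTR1 (the gene of TAZ), and siYAP+TAZ cells both pools. Each pool was used at the same concentration, so the co-knockdown also received more siRNA in total, and the 2 differences cannot be told apart. Knockdown lasted 48 h, and the cells then spent 5 to 6 h on gelatin before lysis. The libraries carry the numbers 16, 21 and 26 for Control. Those of siControl are 17, 22 and 27. In siYAP they are 18, 23 and 28, in siTAZ 19, 24 and 29, and in the co-knockdown 20, 25 and 30.

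VEGF ligands are secreted growth factors that drive the growth of blood and lymph vessels. VEGFA binds the receptor tyrosine kinases FLT1 and KDR, VEGFB and PGF bind FLT1, and VEGFC binds FLT4 and, after processing, KDR. The neuropilins NRP1 and NRP2 are co-receptors without a kinase that hold VEGF ligands and class 3 semaphorins, and PECAM1 (CD31) is a homophilic adhesion molecule of endothelium, platelets and leukocytes. VEGFA is a classical target of the hypoxia-inducible factors, and YAP and TAZ are transcriptional co-activators that work through TEAD factors.

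Total counts per library lay between 18696737 and 30107312. YAP1 was read at 1013, 2764 and 761 normalized counts in the siYAP libraries 18, 23 and 28, against 4202 to 4431 in siControl, and at 1796 to 2240 in siYAP+TAZ. Library 23 thus kept more YAP1 RNA than the other siYAP libraries, and the YAP1 difference did not pass in siYAP (log2 fold change -1.51, SE 0.37, adjusted p = 0.0992) or in siYAP+TAZ (-1.06, SE 0.37, adjusted p = 0.0723). YAP1 passed in both with DESeq2 (adjusted p = 0.00942 in siYAP and 0.0381 in siYAP+TAZ), limma-voom (0.0097 and 0.0125) and edgeR without robust estimation (0.0233 and 0.0192). With only the groups compared it passed in siYAP+TAZ (2.13e-05), and with runs of 5 consecutive library numbers as a block (the run block) in siYAP (0.0392). Without library 23, YAP1 passed in siYAP (-2.27, adjusted p = 3.29e-08), and still none of the 6 tested genes did. WWTR1 stood at 828, 254 and 521 in siTAZ libraries 19, 24 and 29, against 1579 to 1995 in siControl, and fell by 1.74 on the log2 scale (SE 0.31, adjusted p = 0.0187). The WWTR1 call was lost without library 17, 22 or 29 (adjusted p 0.0667 to 0.0734), where the values were -1.67 to -1.73, with only the groups compared (0.172) and without libraries 26 to 30 (0.13). In siYAP+TAZ, WWTR1 stood at 1123 to 1284, below every siControl library, with a log2 fold change of -0.62 (SE 0.30, adjusted p = 0.199). With only the groups compared, WWTR1 passed there against siControl (-0.61, adjusted p = 0.00102) and against Control (-0.44, adjusted p = 0.0087). All 7 listed YAP and TAZ target genes fell in siYAP+TAZ, where 1583 of all 18858 genes fell, among them ANKRD1 (-1.36, adjusted p = 0.0233) and CCN1 (-1.17, adjusted p = 8.37e-06). ANKRD1 lost its call without library 17, 20, 22, 25 or 30 (adjusted p 0.0541 to 0.0836), and without libraries 26 to 30 (0.101).

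To show the start regions of genes that did and did not change, the 250 bases before the RefSeq starts of PGF, which rose in the co-knockdown, and of VEGFC, which did not pass, are given 5′ to 3′ on the minus strand of GRCh38.p14. The PGF starts are 2, with overlapping windows at chr14:74955765-74956014 and chr14:74955598-74955847, and the VEGFC window is chr4:176792923-176793172. Capitals mark GC boxes (GGGCGG or its reverse complement).
PGF, first window: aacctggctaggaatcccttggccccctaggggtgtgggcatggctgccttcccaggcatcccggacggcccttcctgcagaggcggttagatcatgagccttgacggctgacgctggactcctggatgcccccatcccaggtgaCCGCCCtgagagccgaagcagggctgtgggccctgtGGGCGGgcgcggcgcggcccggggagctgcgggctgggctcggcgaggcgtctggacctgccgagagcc
PGF, second window: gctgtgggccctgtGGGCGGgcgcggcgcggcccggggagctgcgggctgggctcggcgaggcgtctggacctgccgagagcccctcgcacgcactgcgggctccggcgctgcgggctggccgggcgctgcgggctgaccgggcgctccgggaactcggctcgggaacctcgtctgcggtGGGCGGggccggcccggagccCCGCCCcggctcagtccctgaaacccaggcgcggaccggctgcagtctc
VEGFC: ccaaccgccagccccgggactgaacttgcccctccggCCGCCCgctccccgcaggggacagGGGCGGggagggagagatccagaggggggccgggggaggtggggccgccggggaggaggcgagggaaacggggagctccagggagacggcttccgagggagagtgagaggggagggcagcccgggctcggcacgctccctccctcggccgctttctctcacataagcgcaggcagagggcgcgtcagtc

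RefSeq windows were at hand for 5 of the 8 genes (VEGFB, VEGFC, PGF, NRP2 and FLT1), and 4 motifs were searched on both strands. None of these windows held the TEAD motif GGAATG, found in 11.9% of 35116 RefSeq windows of the same length, the AP-1 motif TGANTCA (6.57%) or the hypoxia response core ACGTG (18.5%). Every one held GC boxes (42.6% of all windows), with 2 in the first PGF window and in VEGFC and 6 in VEGFB. The searches overlap only where neighbouring GC boxes run into each other.

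The co-knockdown raised VEGFA, PGF and NRP1. Against siControl, 3 of the 6 tested genes passed an adjusted p of 0.05 (edgeR quasi-likelihood test, Benjamini-Hochberg over all genes) and all 3 were higher, where 18.4% of all genes passed and 9.97% of all genes passed as higher. VEGFA alone also reached an absolute log2 fold change of 1, as did 3.46% of all genes, and it kept this stricter call in 11 of 15 alternative fits. With siTAZ, VEGFA was the 1 gene of 6 that passed (2.03% of all genes), and with siYAP none of the 6 passed (0.933%). The comparisons share the siControl libraries, so their values stand side by side and are not independent.

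VEGFA, the main angiogenic ligand, lies on chromosome 6 (43770184 to 43786487, plus strand, GRCh38). Its normalized counts (reads scaled by TMM to the mean library) were 8278, 7555 and 8562 in Control and 7917, 8697 and 7799 in siControl. They were 9384, 10742 and 8683 in siYAP, 11796, 12931 and 14362 in siTAZ, and 15836, 15728 and 17722 in siYAP+TAZ. Every siTAZ and siYAP+TAZ library lay above every siControl library, while siYAP library 28 lay within the siControl range.

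The means were 8138 ± 488 in siControl, 13030 ± 1285 in siTAZ and 16429 ± 1121 in siYAP+TAZ (SD, n = 3). In siYAP+TAZ the log2 fold change of VEGFA against siControl was 1.01 (SE 0.09, edgeR adjusted p = 8.48e-07), a 2.02-fold rise. In siTAZ it was 0.68 (SE 0.09, adjusted p = 0.00231). In siYAP it was 0.24 (95% interval 0.05 to 0.43, adjusted p = 0.266). siControl differed from Control by 0.0011 (95% interval -0.19 to 0.19). In bulk RNA, more RNA per cell and more cells that express a gene cannot be told apart.

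VEGFA was thus ordered from siControl and siYAP over siTAZ to siYAP+TAZ, and its neighbours were compared directly. siYAP+TAZ exceeded siYAP by 0.77 (SE 0.09, adjusted p = 8.52e-05). It exceeded siTAZ by 0.33 (SE 0.09, adjusted p = 0.0369). siTAZ exceeded siYAP by 0.44 (SE 0.09, adjusted p = 0.035), a contrast added after the values were seen. The last 2 calls were thin, as each passed in 9 of 15 alternatives. The difference from siTAZ lost its call without any of libraries 19, 20, 24, 25 or 30 (adjusted p 0.064 to 0.127) and with only the groups compared (0.0574). That from siYAP lost it without library 18, 24, 28 or 29 (0.15 to 0.201), with only the groups compared (0.184) and without libraries 26 to 30 (0.0988).

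**Figure D1:**
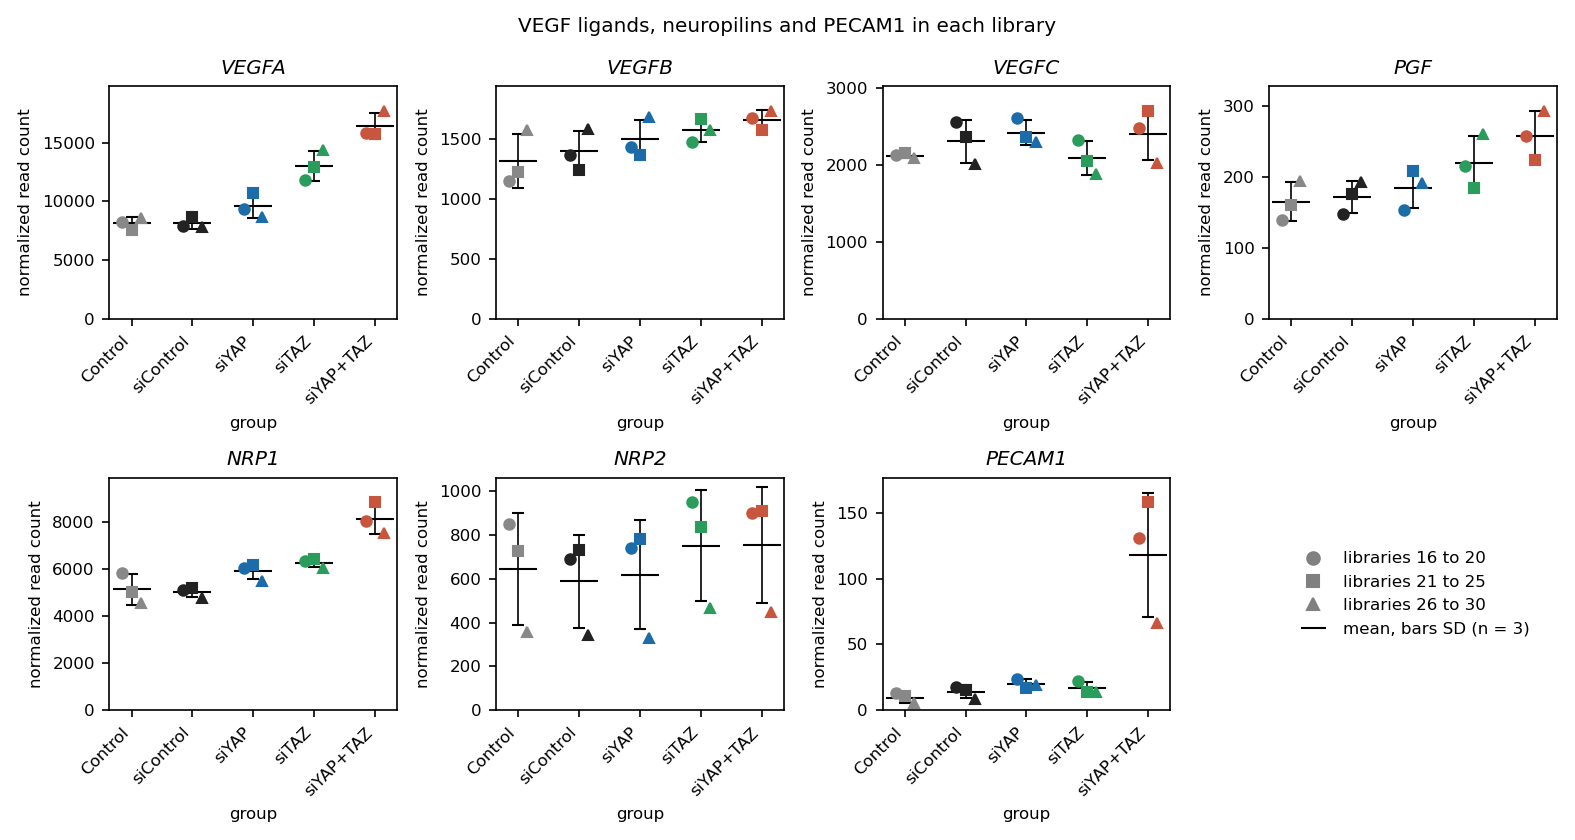
Normalized read count (linear axis from 0) of the 7 genes with a row in each of the 15 libraries, by group; symbols mark the runs of library numbers, and bars are the mean and SD of 3 libraries. VEGFA steps up from siControl over siTAZ to siYAP+TAZ, PECAM1 is high in siYAP+TAZ alone, and NRP2 is lowest in libraries 26 to 30 of every group.

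PGF, placental growth factor, lies on chromosome 14 (74941834 to 74955626, minus strand). It had few reads, 148, 176 and 193 normalized counts in siControl and 258, 225 and 294 in siYAP+TAZ, and the groups did not overlap. The rise was 0.59 on the log2 scale (SE 0.16, adjusted p = 0.0154). It passed in 14 of 16 alternatives, and the call was lost without siControl library 17 (0.50, adjusted p = 0.0809) or siYAP+TAZ library 30 (0.50, adjusted p = 0.07). In siTAZ the values were 215, 185 and 261, overlapping siControl (0.36, SE 0.16, adjusted p = 0.294). In siYAP they were 153, 208 and 192 (0.10, SE 0.16, adjusted p = 0.892).

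VEGFB, a ligand of FLT1, lies on chromosome 11 (64234584 to 64239264, plus strand). It gave 1366, 1246 and 1581 normalized counts in siControl and 1675, 1576 and 1734 in siYAP+TAZ, and the groups overlapped. The log2 fold change was 0.25 (95% interval 0.01 to 0.49, adjusted p = 0.138). Against the untransfected Control, with 1150, 1224 and 1576, the co-knockdown value was 0.34 (SE 0.11, adjusted p = 0.0428). The call on VEGFB therefore differed with the reference, and that against Control was lost without library 16, 20, 21, 25 or 30 (adjusted p 0.0565 to 0.186). Against siControl, VEGFB did pass in siYAP+TAZ with library size only (0.30, adjusted p = 0.0488), with runs of library numbers as a block (0.25, adjusted p = 0.0109) and without libraries 26 to 30 (0.33, adjusted p = 0.00837).

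VEGFC, the lymphangiogenic ligand, lies on chromosome 4 (176683538 to 176792922, minus strand). Its values were 2557, 2360 and 2012 in siControl and 2488, 2705 and 2030 in siYAP+TAZ, and the groups overlapped throughout. The log2 fold change was 0.06 (95% interval -0.16 to 0.28, adjusted p = 0.762). In siTAZ it was -0.14 (-0.36 to 0.08, adjusted p = 0.558) and in siYAP 0.07 (-0.15 to 0.29, adjusted p = 0.879). Against Control, VEGFC in siYAP+TAZ was at 0.18 (adjusted p = 0.261), and it passed there without libraries 26 to 30 (0.28, adjusted p = 0.0187). The VEGFA changes in siTAZ and siYAP+TAZ lay outside the VEGFC intervals of the same knockdowns.

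NRP1, the co-receptor of VEGFA and of SEMA3A, lies on chromosome 10 (33177492 to 33336262, minus strand). An annotated gene on the opposite strand covers 4.87% of its exonic bases, and whether reads were counted by strand is not stated. Its normalized counts were 5835, 5045 and 4560 in Control, 5107, 5218 and 4794 in siControl, and 6080, 6188 and 5527 in siYAP. They were 6339, 6427 and 6075 in siTAZ and 8075, 8854 and 7538 in siYAP+TAZ. All libraries of the 3 knockdowns lay above all of siControl, while the siYAP libraries overlapped Control.

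In siYAP+TAZ NRP1 rose by 0.69 on the log2 scale (SE 0.09, adjusted p = 2.33e-05), from a mean of 5040 ± 220 to 8156 ± 662 (SD, n = 3). The single knockdowns gave 0.24 in siYAP (SE 0.09, adjusted p = 0.239) and 0.32 in siTAZ (SE 0.09, adjusted p = 0.0597), neither of which passed. In siTAZ NRP1 did pass with DESeq2 (adjusted p = 0.0245) and without libraries 26 to 30 (0.0251). With runs of library numbers as a block, which the labels do not name as sets, it passed in siYAP (0.23, adjusted p = 0.019) and in siTAZ (0.32, adjusted p = 0.00104). Within runs of consecutive library numbers, the NRP1 ratios to siControl were 0.25, 0.25 and 0.21 in siYAP and 0.31, 0.30 and 0.34 in siTAZ, all above 0. The co-knockdown exceeded siYAP by 0.46 (SE 0.09, adjusted p = 0.0037) and siTAZ by 0.38 (SE 0.09, adjusted p = 0.0144). The difference from siTAZ did not pass without library 25 (adjusted p = 0.0826) or library 29 (0.0653).

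**Figure D2:**
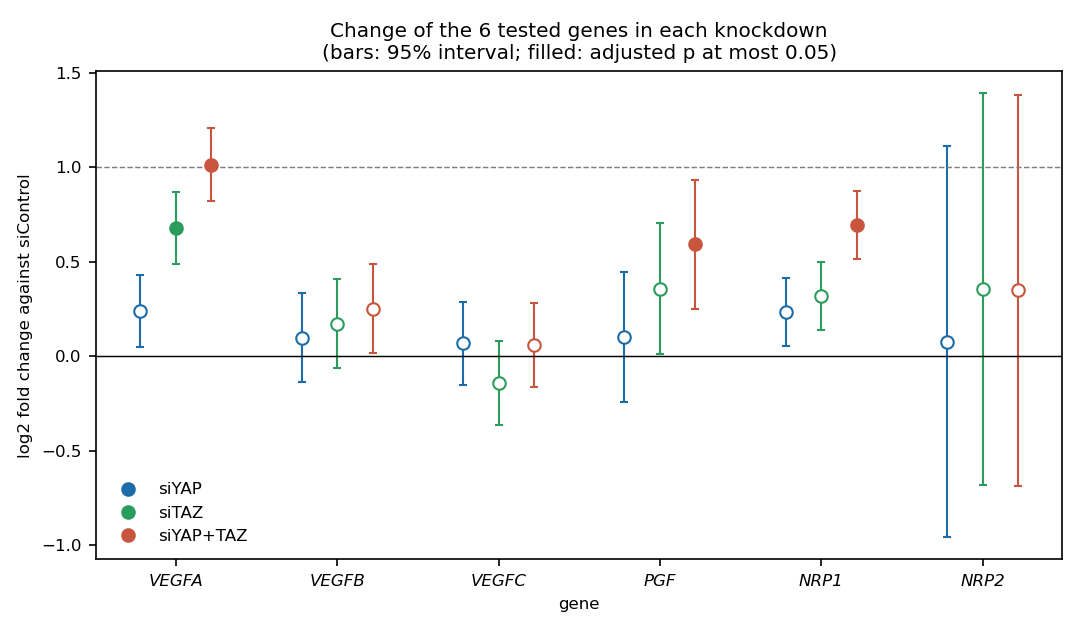
Log2 fold change against siControl of the 6 tested genes in siYAP, siTAZ and siYAP+TAZ, with 95% intervals; filled points have an adjusted p of at most 0.05 and the dashed line marks a log2 fold change of 1. VEGFA, PGF and NRP1 in siYAP+TAZ and VEGFA in siTAZ are filled, VEGFC lies at 0.06 in siYAP+TAZ, and the NRP2 intervals are the widest.

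NRP2, the co-receptor of VEGFC and of SEMA3F, lies on chromosome 2 (205681990 to 205798133, plus strand). Its values varied widely within groups. Its normalized counts were 849, 729 and 358 in Control, 690, 731 and 341 in siControl, and 742, 782 and 332 in siYAP. They were 948, 837 and 465 in siTAZ and 900, 911 and 447 in siYAP+TAZ. In every group the library of the highest number (26 to 30) was the lowest, and those 5 libraries lay between 332 and 465 against 690 to 948 in the other 10.

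Pooled over libraries, the NRP2 log2 fold change was 0.35 in siYAP+TAZ (95% interval -0.69 to 1.38, adjusted p = 0.679), 0.35 in siTAZ (-0.68 to 1.39, adjusted p = 0.788) and 0.08 in siYAP (-0.96 to 1.11, adjusted p = 0.982), none of which passed. Taken within runs of 5 consecutive library numbers, a division added after the values were seen, the siYAP+TAZ to siControl log2 ratios were 0.38, 0.32 and 0.39. Those of siTAZ were 0.46, 0.19 and 0.45, and those of siYAP 0.11, 0.10 and -0.04. The NRP2 ratios within runs were thus close together while the levels between runs were not. Without libraries 26 to 30, also chosen after the values were seen, NRP2 passed in siYAP+TAZ (0.36, SE 0.09, adjusted p = 0.00902) and in siTAZ (0.34, SE 0.09, adjusted p = 0.0412), on 2 libraries a group. The labels do not say that a run of numbers is a set of experiments.

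Within runs, VEGFA ratios of siYAP+TAZ to siControl were 1.0002, 0.85 and 1.18 in the 3 runs, those of NRP1 0.66, 0.76 and 0.65, and those of PGF 0.80, 0.35 and 0.60. VEGFB gave 0.29, 0.34 and 0.13, all above 0. VEGFC gave -0.04, 0.20 and 0.01.

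**Figure D3:**
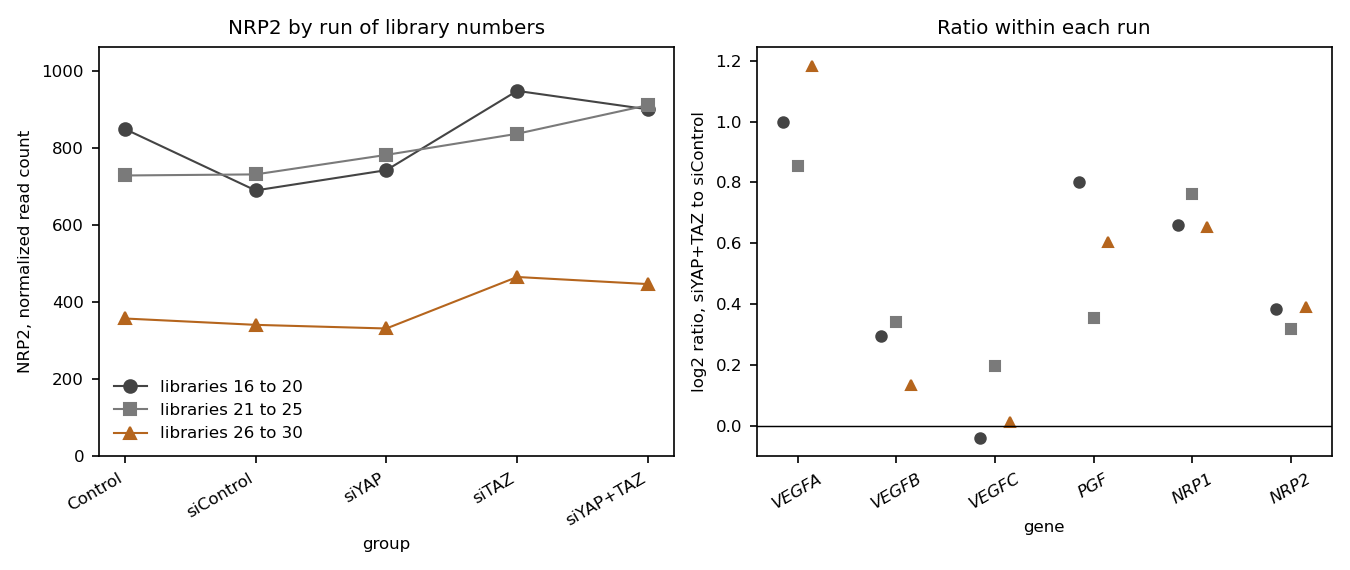
Left, normalized read count of NRP2 (linear axis from 0) by group, with a line for each run of 5 library numbers. Right, log2 ratio of siYAP+TAZ to siControl within each run for the 6 tested genes. The line of libraries 26 to 30 stays between 332 and 465 counts, below the others, while the 3 NRP2 ratios lie between 0.32 and 0.39.

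PECAM1 lies on chromosome 17 (64319415 to 64413776, minus strand) and was the scarcest of the 7. It had 13, 9 and 4 reads in Control, 21, 17 and 8 in siControl, 31, 21 and 19 in siYAP, and 26, 12 and 11 in siTAZ. The siYAP+TAZ libraries held 110, 147 and 72 reads, and this is the rise for which the gene was chosen. Scaled for depth, its siYAP+TAZ mean was 118 ± 47.2 normalized counts against 14.1 ± 4.86 in siControl (SD, n = 3), 8.41-fold higher. The spread among siYAP+TAZ libraries was wide, with 131, 158 and 66.1 normalized counts, all above the highest value of any other group (23.8).

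The values of PECAM1 that the choice did not use are those of the single knockdowns against untransfected cells. All siYAP and all siTAZ libraries lay above all Control libraries in normalized counts, 2.09-fold and 1.76-fold by the means. Neither difference passed, with a log2 fold change of 1.02 in siYAP (SE 0.43, adjusted p = 0.319) and 0.80 in siTAZ (SE 0.45, adjusted p = 0.349). An exact two-sided permutation test gave p = 0.1 for each, the smallest that 3 against 3 libraries allow. The siControl mean of PECAM1 was itself 1.47-fold that of Control, and the 2 groups overlapped. Against siControl, siYAP was 1.42-fold and siTAZ 1.20-fold higher by the means. Both overlapped siControl, and these values are a description without a test. siTAZ and siYAP differed by -0.21 (95% interval -1.02 to 0.60, adjusted p = 0.864).

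Between untransfected Control and siControl none of the 6 tested genes passed. No gene of the whole table passed there (0%; edgeR), with 398 genes at an unadjusted p under 0.05 and 0 passing by DESeq2 or limma-voom. There 1 gene passed with the run block and 6 did without libraries 26 to 30, with 1872 at an unadjusted p under 0.05. Against Control, 4 of 6 were higher in siYAP+TAZ (VEGFA, VEGFB, PGF and NRP1, with PGF losing its call without library 16, adjusted p = 0.0544), where 19.4% of all genes passed. In siTAZ against Control VEGFA was the 1 of 7 that passed (3.40% of all genes), and in siYAP none of 7 did (1.46%). Other fits changed these calls. NRP1 passed in siTAZ against Control with DESeq2 (adjusted p = 0.0492), without library 16 (0.0337) and with the run block (0.00197), and in siYAP with the run block (0.039). VEGFB passed in siTAZ without library 26 (0.0291), without libraries 26 to 30 (0.00716) and with the run block (0.017), where PGF passed too (0.0254). VEGFA passed in siYAP against Control without libraries 26 to 30 (0.34, adjusted p = 0.0332). VEGFA and NRP1 were the 2 of 6 that passed in siYAP+TAZ against siYAP (5.13%) and the 2 of 6 against siTAZ (5.44%). In siTAZ against siYAP, 1 of 7 passed (0.642%).

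Whether the co-knockdown gave more than the sum of the single knockdowns was tested as an interaction on the log2 scale. None of the 6 genes passed (0.0106% of all genes did). The targets were not lowered equally in the groups compared. WWTR1 was at -0.62 in siYAP+TAZ against -1.74 in siTAZ, and YAP1 at -1.06 against -1.51 in siYAP. The sum, and the direct comparisons of siYAP+TAZ with the single knockdowns, are therefore not at equal knockdown depth. For VEGFA the departure from the sum was 0.10 (95% interval -0.17 to 0.36, adjusted p = 0.961). For NRP1 it was 0.14 (-0.11 to 0.39, adjusted p = 0.935). The intervals are wide enough to hold larger departures in either direction for PGF (-0.35 to 0.62) and NRP2 (-1.54 to 1.38). For PECAM1 the value was 2.28, a description without a test, since it holds the co-knockdown values on which the gene was chosen.

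To compare levels between genes, reads were divided by exon length (RPKM, reads scaled to both length and depth), once over all annotated exons and once over the canonical transcript. The order depended on that length. Over the canonical transcript, siControl levels were 95.4 ± 5.72 RPKM for VEGFA, 43.2 ± 5.17 for VEGFC, 37.8 ± 1.65 for NRP1 and 32.7 ± 3.99 for VEGFB (SD, n = 3). Neighbours among VEGFC, NRP1 and VEGFB differed by less than the sum of their SDs, and so did PGF (4.19 ± 0.55) and NRP2 (3.74 ± 1.36). Over all exons VEGFA fell to 23.8 ± 1.43, below VEGFC (37.3 ± 4.46) and VEGFB (30.0 ± 3.65). PECAM1 was last under both, at 0.087 and 0.077 RPKM.

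VEGFA made up more of the ligand RNA in siTAZ and siYAP+TAZ under both lengths. As a share of the summed RPKM of the 4 ligands it was 54.3% ± 2.17 in siControl, 56.9% ± 3.51 in siYAP, 65.1% ± 2.90 in siTAZ and 68.0% ± 2.39 in siYAP+TAZ over canonical transcripts. Over all exons the VEGFA shares were 25.8% ± 1.77, 27.9% ± 3.04, 35.5% ± 3.06 and 38.6% ± 2.79. VEGFC went from 24.6% to 16.0% of the canonical sum between siControl and siYAP+TAZ, while its own count did not pass. PGF was between 1.33% and 2.39% of the sum in all groups under both lengths. These shares are a description, with no test.

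**Figure D4:**
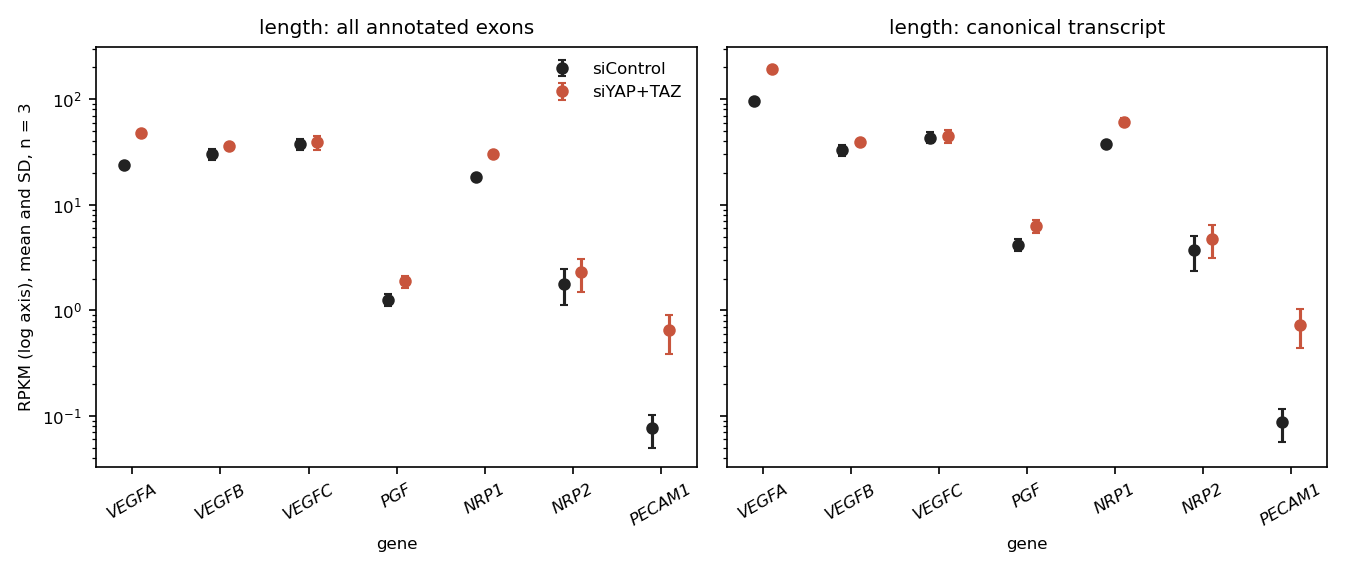
RPKM (log axis) of the 7 genes in siControl and siYAP+TAZ, mean and SD of 3 libraries, with length taken over all annotated exons (left) or the canonical transcript (right). VEGFA lies below VEGFC in siControl on the left (23.8 against 37.3) and above it on the right (95.4 against 43.2), and PECAM1 is the lowest in both.

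Of the other VEGF genes listed (VEGFD, KDR and FLT4), KDR, the main VEGFA receptor of endothelium, was measured, and its log2 fold change in siYAP+TAZ was -0.28 (SE 0.14, adjusted p = 0.202). KDR did pass as lower in siYAP+TAZ against Control (-0.45, SE 0.14, adjusted p = 0.0364) and against siYAP (-0.53, SE 0.14, adjusted p = 0.0364). The call against Control was lost without library 16, 20, 21 or 25 (adjusted p 0.0733 to 0.185), with library size only (0.0647) and with only the groups compared (0.0904), and that against siYAP without any 1 of its 6 libraries (0.0509 to 0.146). The counts of the lists that follow stand beside the 9.97% of all genes that passed as higher in siYAP+TAZ against siControl and the 18.4% in either direction. Of 12 class 3 semaphorins and plexins, the ligands and signalling partners of neuropilins, 4 rose and none fell (median 0.22, against -0.0048 over all genes). The 4 were PLXND1, PLXNA1, PLXNA3 and PLXNA4, all plexins. PLXNA4 had the largest value (1.34, SE 0.42, adjusted p = 0.044), at 82 to 190 normalized counts in siControl and 224 to 505 in siYAP+TAZ. That call on PLXNA4 was lost without library 17, 22 or 30 (adjusted p 0.13 to 0.163), and with only the groups compared (0.124). Of the 7 semaphorins none passed, and the SEMA3E value was -1.19 (adjusted p = 0.0572). SEMA3E did fall with DESeq2 (-1.16, adjusted p = 0.0224), where 19.4% of all genes passed, and SEMA3C, SEMA3D and SEMA3E did with the run block (28.6%). Against Control the list had a median of 0.0065, with 3 plexins higher and SEMA3E lower (-1.25, adjusted p = 0.0458; 19.4% of all genes passed), and PLXNA3 did not pass. That SEMA3E call was lost without library 16, 20, 21 or 30 (adjusted p 0.0688 to 0.151) and with library size only (0.0634).

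Of 5 measured PDGF ligands and receptors, PDGFRB, the PDGF receptor of pericytes, rose (1.60, SE 0.29, adjusted p = 0.000993) and 4 did not pass (list median 0.07). PDGFRB stood at 46.8 to 80.5 normalized counts in siControl and 159 to 254 in siYAP+TAZ. Of 9 measured angiopoietins, FGFs and other angiogenic ligands and receptors, 1 fell and none rose (median -0.08). It was the growth factor FGF1 (-0.78, adjusted p = 0.000277). Of 23 measured genes of VEGF receptor signalling, 3 rose, the kinases SRC and MAPK3 and the PI3-kinase subunit PIK3R1, by 0.31 to 0.48, and 20 did not pass (median 0.02), a share near that of all genes. PIK3R1 lost its call without library 22, 25 or 30 (adjusted p 0.0632 to 0.112), and MAPK3 without library 17, 20 or 22 (0.0518 to 0.0581). The list gave 6 higher genes without libraries 26 to 30, where 19.9% of all genes passed, and 7 higher and 2 lower with the run block, where 28.6% did.

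Of 6 PECAM1 partners, the phosphatase PTPN6 (0.77, adjusted p = 0.013) and the integrin subunit ITGAV (0.30, adjusted p = 0.0163) rose, and CD177, a neutrophil ligand of PECAM1, fell (-2.73, adjusted p = 0.0468). CD177 was at 1.70 to 13.9 normalized counts in siControl and 0 to 2.38 in siYAP+TAZ, and its call was lost without any 1 of libraries 20, 22, 25, 27 and 30 (adjusted p 0.0535 to 0.194), without libraries 26 to 30 (0.387) and in 4 other fits (0.0511 to 0.114). PTPN6 lost its call without library 17 (0.0685) or 25 (0.05001) and without libraries 26 to 30 (0.0721), and ITGAV without library 17, 25 or 30 (0.0594 to 0.0659). The median of the list was 0.14. PTPN11, the other SH2 phosphatase that docks on PECAM1, was at -0.33 (adjusted p = 0.0661).

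Hypoxia-induced genes, a list without VEGFA, mostly rose. Of 14, 11 rose and 1 fell in siYAP+TAZ, with a median of 0.58. The count that rose was 8 without library 20 (13.6% of all genes passed) and 9 without library 22, 25 or 27 (13.3% to 14.7%). LDHA and BNIP3 lost their calls without each of these 4 libraries (adjusted p 0.0718 to 0.153), BNIP3 with library size only (0.0553) and P4HA1 without library 20 (0.0514). The named ones were CA9, a carbonic anhydrase (2.29, SE 0.21, adjusted p = 8.56e-07), NDRG1 (1.75, SE 0.18, adjusted p = 2.45e-05), the glycolytic enzyme ALDOC (1.65, SE 0.35, adjusted p = 0.00416) and the prolyl hydroxylase EGLN3 (1.59, SE 0.31, adjusted p = 0.00271). ADM, adrenomedullin, went the other way (-1.17, adjusted p = 0.00175). In siYAP (0.933% of all genes passed) and in siTAZ (2.03%) 1 of the 14 rose, CA9 both times, and 1 fell, ADM both times. The CA9 call in siTAZ was lost without library 17, 24, 27 or 29 (adjusted p 0.0756 to 0.102) and with only the groups compared (0.0825), and that in siYAP without library 17 (0.0558) or 18 (0.0508). The ADM call in siYAP was lost without library 17 (0.0549) or 28 (0.0699), and that in siTAZ with only the groups compared (0.0729). Without libraries 26 to 30 ADM did not pass in siYAP (0.185), siTAZ (0.0949) or siYAP+TAZ (0.0645). With DESeq2, 3 of the 14 rose in siYAP, where 2.12% of all genes passed. With the run block 7 rose in siYAP (6.1% of all genes passed) and 5 in siTAZ (10.3%). The list was chosen with results of these libraries known, so its count is a description.

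Of 7 measured HIF subunits and their regulators, HIF1A, the oxygen-labile subunit of HIF-1, rose in siYAP+TAZ (0.80, SE 0.15, adjusted p = 0.00193; list median 0.14) and in siTAZ (0.68, SE 0.15, adjusted p = 0.0309). The HIF1A call in siTAZ was lost without library 17, 22, 24 or 27 (adjusted p 0.0875 to 0.194) and with library size only (0.0518). HIF1A was at 4740 to 5666 normalized counts in siControl, 7478 to 9769 in siTAZ and 7527 to 10456 in siYAP+TAZ. EPAS1 (0.42, adjusted p = 0.599) and VHL (0.06, adjusted p = 0.63) did not pass. VEGFA and HIF1A were thus both higher in siTAZ and siYAP+TAZ, and whether they are linked was not tested.

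Endothelial RNA was checked since PECAM1 is an endothelial marker. Of 14 endothelial markers 7 were measured, and their summed level was 3672 to 4670 normalized counts in siControl and 3353 to 5482 in siYAP+TAZ. Most of that sum was ESAM, at 2281 to 3658 in siControl and 1836 to 4040 in siYAP+TAZ. ROBO4 added 689 to 999 and 1029 to 1218, while CLDN5 was at 4.25 to 8.58 in siControl. Of the 7, ROBO4 rose (0.49, SE 0.12, adjusted p = 0.00863), a call lost without library 17 (0.0589) or 22 (0.0521), and 6 did not pass (median -0.04). CDH5, VWF, TEK and ERG had no row, and every gene with a row had at least 5 reads in some library. Of 3 measured leukocyte and platelet markers CD14 rose (1.20, SE 0.24, adjusted p = 0.00197; median -0.25), from 13.6 to 20.3 to 34.4 to 45.2 normalized counts, and the sums were 22.5 to 25.9 in siControl and 39.5 to 48.8 in siYAP+TAZ. Of 5 fibroblast and pericyte markers none passed (median 0.42), with sums of 706 to 1030 and 1034 to 1398, and in 6 other fits ACTA2, a contractile actin, rose. Each of the 7 endothelial markers had over 3 reads in at least 1 library of every group. PTPRC, the pan-leukocyte marker, had 0 to 6 reads in any library, ITGA2B 0 to 6 and the fibroblast gene LUM 0 to 9. The part of these markers in the PECAM1 values was not tested.

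Markers of the labelled line were checked. The 5 genes known to be high in MDA-MB-231 (VIM, CD44, AXL, CAV1 and LGALS1) summed to 97417 to 107146 normalized counts in siYAP+TAZ, below every library of siControl (108837 to 117358) and of the other groups (108457 to 121812). In siYAP+TAZ AXL and CAV1 fell and LGALS1 rose (list median 0.10), and the LGALS1 call was lost without library 17, 20, 22 or 25 (adjusted p 0.0714 to 0.188). AXL had the largest log2 change of the 5 (-0.51). It stood at 35803 to 38270 normalized counts in siControl and 25087 to 26315 in siYAP+TAZ. AXL is also in the list of YAP and TAZ targets. Of 4 luminal genes listed as low in the line, PGR and GATA3 were measured, and neither passed (median 0.61). PGR had 0 to 7 reads in any library. GATA3 went against the list, with 424 to 680 normalized counts, more than PGF. The medians of the siRNA targets and of the YAP and TAZ targets in siYAP+TAZ were -0.84 and -0.84.

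Genes whose log2 CPM followed a member most closely over the 15 libraries are named as a description. All points share the same libraries, and no p was computed. For VEGFA they were TNFSF10 (Pearson r 0.98, Spearman rho 0.93), RBM47 (0.97, 0.91), APOL6 (0.97, 0.98), SYNJ2 (0.97, 0.94) and CNIH3 (0.97, 0.91). With group means removed, these r values were 0.51 to 0.83. TNFSF10, the death ligand TRAIL, went from 170 to 269 normalized counts in siControl to 695 to 977 in siYAP+TAZ.

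For PECAM1 the closest were MAGI1 (r 0.97, rho 0.86), SMIM14 (0.97, 0.85), PCDHGB1 (0.97, 0.90), NDRG1 (0.96, 0.89) and PBXIP1 (0.96, 0.87), with 0.72 to 0.90 once group means were removed. NDRG1, of the hypoxia list, stood at 3891 to 5850 normalized counts in siControl and 14432 to 19227 in siYAP+TAZ. NRP1 was most like ARHGEF4 (r 0.98), VEGFB like HIGD2A (0.97), VEGFC like ARFIP2 (0.93) and PGF like CTDSP2 (0.93). NRP2 was most like CPT1A, the carnitine palmitoyltransferase of mitochondria, at r 0.99 over all libraries and 0.99 within groups. For NRP2 that likeness therefore holds between libraries of 1 group, where libraries 26 to 30 were low.

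Between members, NRP1 and PECAM1 had an r of 0.92 over the 15 libraries and 0.74 with group means removed. The 0.92 holds the co-knockdown values on which PECAM1 was chosen. With group means removed, other pairs were as large, such as VEGFC and PECAM1 (0.85), NRP1 and NRP2 (0.84), and VEGFB and NRP2 (-0.83). VEGFA and NRP1 had an r of 0.88, and -0.01 with group means removed.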

How the data were processed

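RNA of 15 libraries was analysed, 3 in each of 5 groups, with groups taken from the sample titles. The authors trimmed single NovaSeq reads of polyadenylated RNA in the UTAP pipeline (cutadapt, then STAR on GRCh38 and GENCODE 34) and deposited raw read counts per gene, which are the input of every test. The authors also deposited a normalized signal (counts over size factors) and log2-scale rlog values, and their own fold changes, p-values and means for each pair of groups, none of which was used.

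Counts were scaled by TMM and tested with edgeR 4.0.16 (R 4.3.3) by the quasi-likelihood method with robust estimation over all 15 libraries, with Benjamini-Hochberg adjustment over 18858 genes. The limit on the adjusted p was 0.05, and a stricter call added a limit of 1 on the size of the log2 fold change. The study describes the libraries as 3 independent sets of experiments, without saying which libraries form a set. TMM factors lay between 0.943 and 1.03, and the counting error of a single library at the mean count of its group was under 10% for each gene except PECAM1 outside siYAP+TAZ.

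The members and gene lists were chosen with earlier results of these data known. Named are the 8 genes, YAP1 and WWTR1, up to 4 genes of each list that passed both limits in siYAP+TAZ, and the genes most like a member in log2 CPM (prior count 2, mean of at least 20 normalized counts). Other genes in the text were named after their values were seen. Alternatives were DESeq2 1.42.0, limma-voom (limma 3.58.1), filterByExpr, other size factors, no robust estimation, only the compared groups, Control as reference, a run block and leaving out each library. The tests were checked on simulated counts. Coordinates and exon lengths are from GRCh38 with GENCODE 44.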

Additional observations from a re-analysis of the deposited data

How the results depend on the processing

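VEGFA in siYAP+TAZ and siTAZ and NRP1 in siYAP+TAZ passed in 16 of 16 alternatives, and PGF in siYAP+TAZ in 14 of 16. VEGFA in siYAP+TAZ ranged from 0.94 to 1.06 on the log2 scale, so it reached the fold limit in 11 of 15 fits against siControl. Of 6 tested genes, the count past the adjusted p changed as follows. In siTAZ it was 2 with DESeq2 (NRP1, 0.32, adjusted p = 0.0245; 4.25% of all genes). In siYAP+TAZ against siTAZ it was 1 with only the groups compared (3.2% of all genes, against 5.44%). With single libraries left out, it was 0 to 1 in siYAP+TAZ against siTAZ (2.47% to 5.03%), 0 being without library 25 (2.47%). Without libraries 26 to 30 it was 5 in siYAP+TAZ (19.9% of all genes passed) and 3 in siTAZ (4.68%). The labels give the groups no shared replicate numbers. Runs of 5 consecutive library numbers were tried as a replicate block, as only a hint from the data: deviations of libraries in the same run correlated with a median r of 0.39 (-0.05 to 0.62), and 10 of 15 libraries correlated best with their own run. Pairs of different groups in different runs had a median r of -0.32 (-0.57 to 0.39). With this replicate block the count was 5 in siYAP+TAZ (28.6% of all genes), 3 in siTAZ (10.3%), 1 in siYAP (6.1%) and 4 in siYAP+TAZ against siYAP (14.6%), with NRP2 at 0.36 (adjusted p = 0.000792) in siYAP+TAZ. The values that reversed in sign had not passed against siControl in any fit. NRP2 in siYAP was -0.060 with Control as the reference and -0.19 to 0.37 with single libraries left out. VEGFC with single libraries left out was -0.020 to 0.16 in siYAP (negative without library 27) and -0.031 to 0.18 in siYAP+TAZ (negative without library 27 or 25). The cause of these shifts was not tested. PECAM1 in siYAP+TAZ ranged from 2.77 to 3.33 with single libraries left out. Reads were few for PECAM1, with 4 to 31 outside siYAP+TAZ, and for PGF, and the part of depth in their spread was not tested.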
